A study of Mus musculus with 13 samples.

Results

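Mitochondria transcribe both strands of a small circular genome, and the complementary transcripts can pair into double-stranded RNA where the unneeded strand is not removed. POLRMT, the mitochondrial RNA polymerase, starts RNA synthesis together with TFAM, which binds and packages the mitochondrial DNA, and TFB2M, which helps to open the promoter. LRPPRC and SLIRP form a complex that stabilizes mitochondrial mRNAs, and FASTKD2 takes part in the processing of mitochondrial RNA and in ribosome assembly. PNPT1, also called PNPase, is an exoribonuclease, and SUPV3L1 is the RNA helicase that works with it to degrade mitochondrial RNA. Loss of either degradation factor is known to let mitochondrial double-stranded RNA accumulate, and PNPT1 is also known as a gene that interferon can induce. The 8 nuclear genes for these proteins, Polrmt, Tfam, Tfb2m, Lrpprc, Slirp, Fastkd2, Pnpt1 and Supv3l1, are described here. They were chosen by gene symbol and are 8 of 54532 genes in the count table. All 8 had a row, each symbol matched 1 gene, and all 8 passed the filter of at least 1 CPM (counts per 1000000 counted reads) in every comparison.

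The RNA came from YUMM1.7, a mouse cutaneous melanoma cell line labelled wild-type in genotype, so every library comes from 1 line. Cells received DMSO as the vehicle control, 10 μM ADAR1i-124 (an inhibitor of RNA editing by ADAR1) for 12 h, 1 μM 5-Aza-CdR (an inhibitor of DNA methylation) for 72 h, or both compounds. Total RNA was sequenced from each treatment. RNA was also precipitated, after digestion with a single-strand specific RNase, with J2, an antibody to double-stranded RNA, or with Z22, an antibody to Z-form RNA. For the combination, 5-Aza-CdR came first and ADAR1i-124 followed. The labels do not give the doses of the precipitated combination libraries, and since ADAR1i-124 was combined at more than a single dose, its dose in them is not certain. The treatment behind the single IgG control library is not given in the sources used here. Of 13 libraries, 12 are used. The total RNA library of the combination holds only 1245894 counts, which follow the opposite strand, and it is described in the closing section alone. The libraries are bulk RNA, in which fewer cells of a type and less RNA per cell cannot be told apart. Each treatment has 1 library of each kind, so differences between treatments have no replicate check and no p-value. Their 95% intervals are exact binomial intervals of the count ratio and cover counting error only.

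Total counts were between 8167960 and 34571822 per library. The Z22 library of DMSO-treated cells stood apart from the other Z22 libraries: Gm42418, a gene that overlaps ribosomal RNA sequence, took 34.9% of its counts, against 10.6% to 15.8% in the other 3 Z22 libraries, and the 8 genes together reached only 148 CPM in it, against 294.5 to 455 CPM in the other 10 libraries of known treatment, where the lowest was J2 with DMSO and the highest total RNA with DMSO. Of 7 melanocyte markers, Mitf was the one with at least 3 counts in all 3 total RNA libraries, and 5, including Tyr, Tyrp1 and Mlana at 0 counts, stayed below 3 counts in all 3. Of 7 markers of leukocytes, endothelium and keratinocytes, 3 reached 3 counts in all 3, and the summed level of the list ranged from 12.4 CPM with DMSO to 162 CPM with 5-Aza-CdR, most of it Cd68 at 75.4 CPM and Cdh5 at 81.1 CPM. Their part in the values below was not tested.

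The sequences upstream of 3 of the genes are shown first. Polrmt and Tfam had the highest and the lowest change of the 8 with ADAR1i-124 in total RNA, and Pnpt1 was the most abundant of the 8 per length. Each window runs from 250 bases before the RefSeq start to 50 bases into the gene (300 bases, GRCm38.p6), written 5′ to 3′ on the strand of the gene. Capitals mark matches, on either strand, to the core of the NRF-1 site (GCGCANGCG), the core of the ETS site that GABP binds (CCGGAAG) and the core of the site for interferon regulatory factors (AANNGAAA). NRF-1 and GABP are nuclear factors known to drive genes of the mitochondrial transcription machinery. The Polrmt window lies at chr10:79746532-79746831 on the minus strand, the Tfam window at chr10:71237995-71238294 on the minus strand, and the Pnpt1 window at chr11:29130494-29130793 on the plus strand.
Polrmt: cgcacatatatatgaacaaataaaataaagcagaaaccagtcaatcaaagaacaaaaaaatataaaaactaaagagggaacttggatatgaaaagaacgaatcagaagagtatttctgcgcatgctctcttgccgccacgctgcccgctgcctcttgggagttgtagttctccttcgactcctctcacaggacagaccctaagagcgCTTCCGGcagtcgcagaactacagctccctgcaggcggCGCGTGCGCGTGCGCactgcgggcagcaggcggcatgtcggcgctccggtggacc
Tfam: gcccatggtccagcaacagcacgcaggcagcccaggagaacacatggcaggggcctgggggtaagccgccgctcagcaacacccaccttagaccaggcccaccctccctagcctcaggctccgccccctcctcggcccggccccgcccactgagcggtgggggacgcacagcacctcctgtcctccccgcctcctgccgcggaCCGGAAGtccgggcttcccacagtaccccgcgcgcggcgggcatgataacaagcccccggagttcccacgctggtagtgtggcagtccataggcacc
Pnpt1: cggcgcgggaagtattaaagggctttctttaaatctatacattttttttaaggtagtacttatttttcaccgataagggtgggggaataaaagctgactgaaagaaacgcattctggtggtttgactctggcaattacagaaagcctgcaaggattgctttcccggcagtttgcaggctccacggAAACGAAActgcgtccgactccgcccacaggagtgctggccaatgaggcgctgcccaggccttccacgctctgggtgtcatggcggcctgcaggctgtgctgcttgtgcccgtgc
The Polrmt window holds 2 matches to the NRF-1 core, which overlap each other, and 1 to the ETS core. The Tfam window holds 1 ETS match, and the Pnpt1 window holds 1 match to the interferon regulatory factor core. Over all 8 genes, the NRF-1 core occurred in 3 windows (Polrmt, Tfb2m and Supv3l1) and in 6.25% of 32851 promoters. The ETS core occurred in 3 windows (Polrmt, Tfam and Slirp) and in 8.86% of promoters, and the interferon regulatory factor core in 4 (Slirp, Fastkd2, Pnpt1 and Supv3l1) and in 23.9%. The Lrpprc window held none of the 3. A match is a description of the letters in the window. Both the NRF-1 and the ETS core hold CG. The 8 windows held 14 (Fastkd2) to 32 (Tfb2m) CG, against a median of 7 over all promoters. The part of CG in these matches was not tested.

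Levels per length differed widely among the 8 genes. In CPM per kilobase of merged exons, the medians of the 3 total RNA libraries ran from Pnpt1 at 32.2 (range 21.7 to 32.5) through Lrpprc at 15.7 (8.58 to 18.2), Supv3l1 at 10.6 (7.38 to 14.0), Slirp at 8.13 (7.02 to 14.2), Tfb2m at 6.39 (4.99 to 9.78) and Tfam at 6.16 (5.86 to 14.6) to Fastkd2 at 4.34 (2.03 to 4.87) and Polrmt at 3.46 (2.86 to 5.68). The range of Pnpt1 did not overlap that of Lrpprc below it, and Tfb2m and Tfam did not overlap Fastkd2. Lrpprc, Supv3l1, Slirp, Tfb2m and Tfam overlapped their neighbours in this order, as did Fastkd2 and Polrmt. The place of Lrpprc depended on the length used, because its merged exons span 8504 bases and its longest transcript 4393. Per kilobase of longest transcript it stood at 30.4, beside 33.7 for Pnpt1. Within the degradation pair, the exonuclease stood above its helicase partner.

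**Figure D1:**
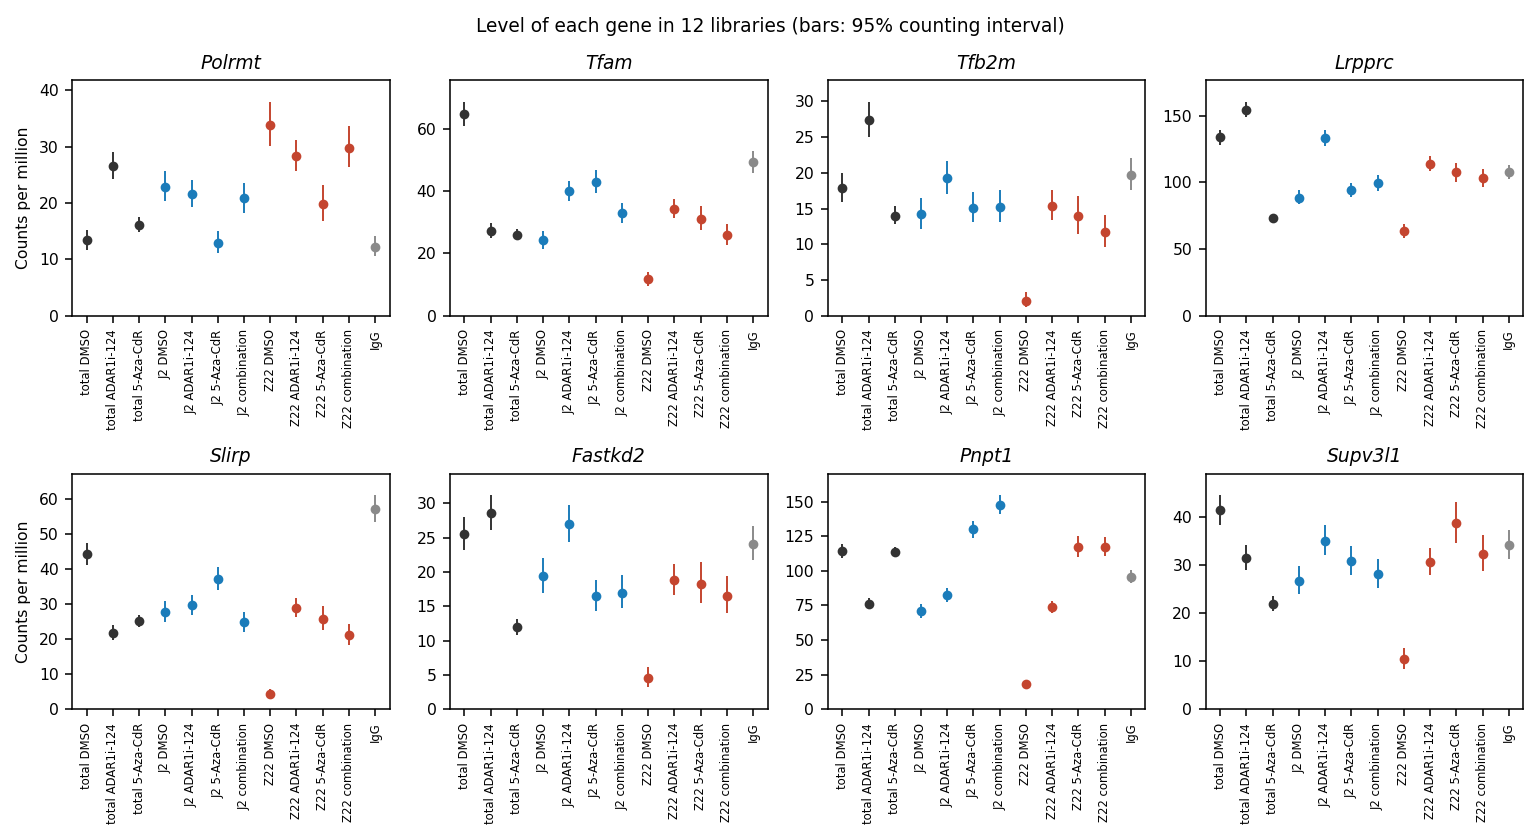
Level of each gene in CPM (vertical axis, from 0) in 12 libraries (horizontal axis): total RNA in black, J2 in blue, Z22 in red and IgG in grey, with 95% counting intervals as bars. In 7 of the 8 panels the Z22 library of DMSO-treated cells is the lowest point, and in the Polrmt panel it is the highest, at 33.9 CPM.

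Polrmt (ENSMUSG00000020329, chr10:79736123-79746581, minus strand, 17 exons in its longest transcript) encodes the polymerase itself. In total RNA it stood at 13.4 CPM with DMSO, 26.6 with ADAR1i-124 and 16.2 with 5-Aza-CdR. The J2 libraries held 22.9 CPM after DMSO, 21.6 after ADAR1i-124, 12.9 after 5-Aza-CdR and 20.8 after the combination, and the Z22 libraries 33.9, 28.3, 19.8 and 29.8 CPM in the same order. IgG held 12.3 CPM, the lowest of the 12. Polrmt was the one gene of the 8 that was highest with Z22 and DMSO. Among the 4 libraries of each antibody, 5-Aza-CdR alone gave its lowest value.

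Tfam (ENSMUSG00000003923, chr10:71225464-71238280, minus strand, 7 exons), which packages the mitochondrial genome, stood at 64.8 CPM with DMSO in total RNA, at 27.4 with ADAR1i-124 and at 26.0 with 5-Aza-CdR. With J2 it was at 24.2 CPM after DMSO, 40.0 after ADAR1i-124, 43.0 after 5-Aza-CdR and 32.9 after the combination. With Z22 the values were 11.7, 34.4, 31.2 and 25.8 CPM, and IgG held 49.4. DMSO thus gave the highest Tfam level of the 3 treatments in total RNA and the lowest of the 4 treatments with either antibody.

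Tfb2m (ENSMUSG00000026492, chr1:179528055-179546267, minus strand, 8 exons), the promoter-opening factor, stood at 17.9 CPM with DMSO, 27.4 with ADAR1i-124 and 14.0 with 5-Aza-CdR in total RNA. With J2 it lay between 14.2 CPM with DMSO and 19.3 with ADAR1i-124. With Z22 it was at 2.06 CPM (18 counts) with DMSO and between 11.7 and 15.4 CPM in the other 3 libraries, and IgG held 19.8. ADAR1i-124 gave the highest level within each of the 3 kinds of library.

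Lrpprc (ENSMUSG00000024120, chr17:84705247-84790789, minus strand, 38 exons), the larger partner of the mRNA-stabilizing complex, stood at 133.5 CPM with DMSO, 154 with ADAR1i-124 and 73.0 with 5-Aza-CdR in total RNA. The J2 libraries held 88.6 CPM after DMSO, 133 after ADAR1i-124, 94.2 after 5-Aza-CdR and 99.4 after the combination. The Z22 libraries held 63.5, 114, 107 and 103 CPM, and IgG held 108. Lrpprc varied least of the 8 over the 12 libraries, by a factor of 2.43 between the lowest and the highest. Like Tfb2m, it was highest with ADAR1i-124 within each kind of library.

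Slirp (ENSMUSG00000021040, chr12:87443896-87452206, plus strand, 4 exons), the small RNA-binding partner of LRPPRC, stood at 44.2 CPM with DMSO, 21.8 with ADAR1i-124 and 25.2 with 5-Aza-CdR in total RNA. With J2 it was at 27.7, 29.7 and 37.2 CPM with DMSO, ADAR1i-124 and 5-Aza-CdR and at 24.7 with the combination. With Z22 it was at 4.24 CPM (37 counts) with DMSO and between 21.2 and 28.9 in the other 3, and the IgG library, at 57.2 CPM, was the highest of the 12. Slirp is uncertain in these counts. Of its 3104 exon bases, 2914 are also exon bases of Snw1 on the opposite strand, and the strand setting of the counting is not given in the sources used here. Snw1 stood at 113 CPM with DMSO, 62.7 with ADAR1i-124 and 95.5 with 5-Aza-CdR in total RNA.

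Fastkd2 (ENSMUSG00000025962, chr1:63730614-63754655, plus strand, 12 exons) stood at 25.5 CPM with DMSO, 28.6 with ADAR1i-124 and 11.9 with 5-Aza-CdR in total RNA. It lay between 16.5 CPM with 5-Aza-CdR and 27.0 with ADAR1i-124 with J2. With Z22 it was at 4.47 CPM with DMSO and between 16.5 and 18.8 in the other 3, and IgG held 24.1. ADAR1i-124 gave its highest level within each kind of library, as for Tfb2m and Lrpprc.

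Pnpt1 (ENSMUSG00000020464, chr11:29130744-29161828, plus strand, 27 exons), the exoribonuclease, stood at 114 CPM with DMSO, 76.3 with ADAR1i-124 and 113 with 5-Aza-CdR in total RNA. With J2 it was at 70.8 CPM after DMSO, 82.5 after ADAR1i-124, 130 after 5-Aza-CdR and 148 after the combination. With Z22 it was at 18.1, 73.7, 117.4 and 117.5 CPM, and IgG held 95.9. Within each antibody, both libraries that received 5-Aza-CdR were above both that did not.

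Supv3l1 (ENSMUSG00000020079, chr10:62429209-62449738, minus strand, 15 exons), the helicase, stood at 41.5 CPM with DMSO, 31.6 with ADAR1i-124 and 21.9 with 5-Aza-CdR in total RNA. With J2 it lay between 26.8 CPM with DMSO and 35.1 with ADAR1i-124. With Z22 it was at 10.4 CPM with DMSO and between 30.7 and 38.8 in the other 3, and IgG held 34.3. It shares 250 exon bases with 4930507D05Rik on the opposite strand, which had 5 counts in total RNA with DMSO against 706 for Supv3l1.

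The first comparison addresses how the editing inhibitor altered total RNA. With ADAR1i-124, the polymerase and its promoter-opening factor were higher than with DMSO, and the packaging factor Tfam, Slirp and both degradation factors were lower. All changes are log2 ratios of CPM + 0.5, which understate low genes. Polrmt was higher by 0.96 (0.76 to 1.23), Tfb2m by 0.60 (0.40 to 0.82) and Lrpprc by 0.21 (0.13 to 0.29). Tfam was at -1.23 (-1.40 to -1.09), Slirp at -1.003 (-1.20 to -0.84), Pnpt1 at -0.58 (-0.69 to -0.48) and Supv3l1 at -0.39 (-0.56 to -0.23). The interval of Fastkd2, at 0.16 (-0.02 to 0.35), included 0. In this comparison 2 of the 8, Tfam and Slirp, were at least 2-fold lower and none was at least 2-fold higher. Of 13693 genes that averaged 1 CPM or more, 8.7% were at least 2-fold lower and 7.71% at least 2-fold higher. The median of the 8 was -0.11 and that of all genes -0.09. By the counting interval, 3 of the 8 lay above 0 and 4 below, where 30.3% of all genes lay above and 41% below. Of the markers of other cell types, the 2 that passed the filter were also higher in this comparison, Cd68 at 8.29 CPM with DMSO and 19.5 with ADAR1i-124 and Cdh5 at 3.70 and 17.8, and their part was not tested. Slirp sits on the 2-fold line and Polrmt just under it, and each of the 3 other scalings moved Polrmt past the line and Slirp back from it.

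Pairs of partners differed in their proportions in this comparison. Ratios within a library need no scaling between libraries. Per kilobase, Lrpprc to Slirp was 1.10 (1.02 to 1.20) with DMSO, 2.59 (2.32 to 2.89) with ADAR1i-124 and 1.06 (0.977 to 1.14) with 5-Aza-CdR in total RNA. Tfam to Tfb2m was 2.28 (2.01 to 2.60) with DMSO, 0.631 (0.555 to 0.717) with ADAR1i-124 and 1.17 (1.05 to 1.31) with 5-Aza-CdR. For these pairs the ADAR1i-124 intervals in total RNA do not overlap those of DMSO. The size of the Lrpprc to Slirp ratio depends on the length used for Lrpprc, here merged exons. Slirp counts are uncertain, as given above. The higher Lrpprc to Slirp ratio was also seen with J2, at 1.17 (1.03 to 1.32) with DMSO and 1.64 (1.48 to 1.83) with ADAR1i-124, whereas Tfam to Tfb2m was 1.08 (0.890 to 1.31) and 1.31 (1.13 to 1.52) there. With Z22 both ratios were lower with ADAR1i-124 than with DMSO, Lrpprc to Slirp at 5.47 (3.92 to 7.84) with DMSO and 1.44 (1.29 to 1.60) with ADAR1i-124, and Tfam to Tfb2m at 3.58 (2.16 to 6.28) and 1.41 (1.20 to 1.66), where the DMSO value is that of the library that stands apart.

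Interferon-stimulated genes were counted beside Pnpt1 because it can be induced by interferon. In total RNA with ADAR1i-124, 12 of 12 were at least 2-fold lower than with DMSO, with a median of -4.67, beside 8.7% of all genes. Isg15, a ubiquitin-like antiviral protein, went from 287 CPM with DMSO to 3.58 with ADAR1i-124, and Ifih1, the double-stranded RNA sensor MDA5, from 222 to 21.2. Pnpt1 was lower by a much smaller amount in the same library. With 5-Aza-CdR, the list had a median of -0.32, and Pnpt1 was at -0.01. Of the 12, 2 were at least 2-fold lower and 1 higher, beside 8.96% and 17% of all genes. For ADAR1i-124 the paper reports the opposite direction in these cells. It gives higher Ifih1 and Cxcl10 by qRT-PCR at a later time than the 12 h here, and more MDA5 protein. This difference was not tested. In Z22 with ADAR1i-124 the list had a median of -0.63, with 3 of 12 at least 2-fold lower, beside 5.13% of all genes.

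The question for 5-Aza-CdR was what the DNA methylation inhibitor altered. With it, 6 of the 8 genes were lower than with DMSO in total RNA by more than counting error, where 36.9% of all genes were. They were the synthesis factors Tfam and Tfb2m, the stability and processing factors Lrpprc, Slirp and Fastkd2, and the helicase Supv3l1. Polrmt was higher by more than counting error, as were 42.2% of all genes, and the value of Pnpt1 was near 0. Tfam was at -1.30 (-1.45 to -1.19) and Fastkd2 at -1.06 (-1.29 to -0.90). Supv3l1 followed at -0.90 (-1.07 to -0.77), Lrpprc at -0.87 (-0.95 to -0.79), Slirp at -0.80 (-0.95 to -0.67) and Tfb2m at -0.35 (-0.57 to -0.15). Polrmt was at 0.26 (0.05 to 0.50), and the interval of Pnpt1, at -0.01 (-0.09 to 0.07), included 0. Thus 2 of the 8 were at least 2-fold lower and none at least 2-fold higher, where 8.96% of 14391 genes were at least 2-fold lower and 17% at least 2-fold higher. The median of the 8 was -0.83 and that of all genes 0.06. The summed level of the markers of other cell types was also highest in this library, most of it from Cd68 and Cdh5, as given above.

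**Figure D2:**
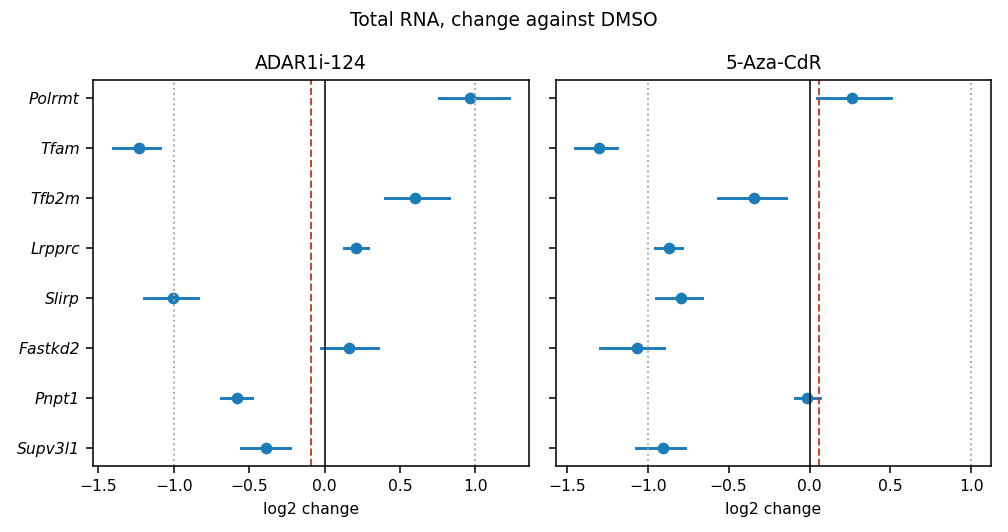
log2 change against DMSO in total RNA (horizontal axis) for each of the 8 genes (vertical axis), with ADAR1i-124 on the left and 5-Aza-CdR on the right. Points are log2 ratios of CPM + 0.5, bars 95% counting intervals, dotted lines the 2-fold limits and the dashed red line the median of all genes. Tfam lies past the 2-fold limit in both panels, at -1.23 and -1.30.

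The helicase and the exonuclease of the degradation pair parted with 5-Aza-CdR. Per kilobase, Pnpt1 to Supv3l1 was 2.33 (2.14 to 2.54) with DMSO, 2.04 (1.85 to 2.25) with ADAR1i-124 and 4.37 (4.04 to 4.73) with 5-Aza-CdR in total RNA. In the J2 libraries it was 2.24 (1.97 to 2.55), 1.98 (1.78 to 2.20), 3.55 (3.19 to 3.96) and, with the combination, 4.42 (3.93 to 4.99). In the Z22 libraries it was 1.47 (1.13 to 1.92), 2.03 (1.81 to 2.27), 2.55 (2.25 to 2.91) and 3.06 (2.69 to 3.49), and IgG held 2.36 (2.14 to 2.62). Within each kind of library, those that received 5-Aza-CdR were above those that did not. This holds without the Z22 DMSO library, since Z22 with ADAR1i-124 was at 2.03. Whether the kinds of library of a treatment came from the same culture is not given, so these may not be independent repeats, and the ratios were chosen after the values were seen.

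The other genes of mitochondrial RNA metabolism are given from 4 lists of 54 genes that hold none of the 8. With ADAR1i-124 in total RNA, 1 of the 54, the mitochondrial topoisomerase Top1mt, was at least 2-fold higher, at 1.18, and 1, the transcription termination factor relative Mterf2, was at least 2-fold lower, at -1.22, beside 7.71% and 8.7% of all genes. The list medians ran from -0.24 to 0.00. With 5-Aza-CdR, 43 of 54 were below 0, as were 47.0% of all genes, and 2, Mterf2 at -1.13 and Noa1, were at least 2-fold lower, with list medians from -0.52 (processing factors) to -0.17 (ribosome assembly factors). Of 77 mitochondrial ribosomal protein genes, 71 were below 0 with 5-Aza-CdR, 10 were at least 2-fold lower, beside 8.96% of all genes, and Mrps12, at 1.08, was at least 2-fold higher, beside 17%, with a median of -0.50. With ADAR1i-124, Mrps12 at 2.32 was the 1 gene of these 77 at least 2-fold higher and Mrps6 at -1.04 the 1 lower, with a median of -0.13. Among the 54, the largest changes with ADAR1i-124 in genes averaging 10 CPM or more were Hsd17b10, a subunit of mitochondrial RNase P, at -0.96 (-1.12 to -0.82), Rbfa, a ribosome-binding assembly factor, at 0.81 (0.57 to 1.12), and Ssbp1, the mitochondrial single-stranded DNA-binding protein, at -0.76 (-0.96 to -0.59). With 5-Aza-CdR they were Noa1, a GTPase of mitochondrial ribosome assembly, at -1.48 (-1.73 to -1.33), Rpusd4, a pseudouridine synthase, at -0.96 (-1.27 to -0.75), and Fastkd3, a relative of Fastkd2, at -0.92 (-1.14 to -0.75). Of 8 nuclear regulators 7 passed the filter. Esrra, a nuclear receptor, was at least 2-fold higher with both compounds, at 6.05, 15.5 and 22.2 CPM with DMSO, ADAR1i-124 and 5-Aza-CdR, and the coactivator gene Ppargc1b was at least 2-fold lower with 5-Aza-CdR, at 5.23 and 2.31 CPM with DMSO and 5-Aza-CdR. Top1mt, Mterf2, Mrps12, Mrps6, Esrra and Ppargc1b were chosen after their values were seen. Nrf1, the gene for NRF-1, stood at 48.3, 51.7 and 41.8 CPM with DMSO, ADAR1i-124 and 5-Aza-CdR. The 13 mitochondrial mRNAs on which these factors act took 1.70%, 2.10% and 2.12% of the counts in the same libraries. Mitochondrial ribosomal RNA ran the other way, at 0.251%, 0.158% and 0.112%.

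In the J2 precipitate, which holds RNA protected from the RNase as well as what sticks without the antibody, none of the 8 genes was past 2-fold against DMSO with either compound alone. With ADAR1i-124, 7.37% of 13522 genes were at least 2-fold higher and 10.8% lower. Above 0 were 7 of the 8, and 7 were above the median of all genes, which was 0.00. Tfam was at 0.71 (0.52 to 0.93), Lrpprc at 0.59 (0.48 to 0.70), Fastkd2 at 0.47 (0.24 to 0.72), Tfb2m at 0.43 (0.16 to 0.73), Supv3l1 at 0.39 (0.19 to 0.60) and Pnpt1 at 0.22 (0.09 to 0.35). The intervals of Slirp, at 0.10, and Polrmt, at -0.08, included 0. The median of the 8 was 0.41 and that of all genes 0.00. The 2 markers of other cell types that passed the filter were both at least 2-fold lower here, with a median of -2.19, and their part was not tested.

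With 5-Aza-CdR alone, none of the 8 was past 2-fold with J2, where 8.61% of 14007 genes were at least 2-fold higher and 6% lower. Pnpt1 was at 0.87 (0.76 to 0.99), Tfam at 0.82 (0.62 to 1.04) and Polrmt at -0.80 (-1.11 to -0.54). With the combination, Pnpt1 was at 1.05 (0.94 to 1.18), the single gene of the 8 at least 2-fold higher, and none was at least 2-fold lower, where 8.21% of 14158 genes were higher and 3.88% lower. Pnpt1 fell back under the line with each of the 3 other scalings. Tfam was at 0.43 (0.22 to 0.67) and Polrmt at -0.13 (-0.39 to 0.12). The 3 comparisons share the DMSO library. In J2 with 5-Aza-CdR and with the combination, 2 markers of other cell types passed the filter. In each, 1 was at least 2-fold higher and 1 lower (medians 0.54 and 0.56), and their part was not tested. Of the 12 interferon-stimulated genes, 11 were at least 2-fold lower with ADAR1i-124 in J2 (median -2.89), beside 10.8% of all genes. All 12 were above 0 under 5-Aza-CdR and under the combination (medians 0.74 and 0.71). There the medians of all genes were 0.06 and 0.11. At least 2-fold higher were 3 and 2 of the 12, beside 8.61% and 8.21% of all genes.

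**Figure D3:**
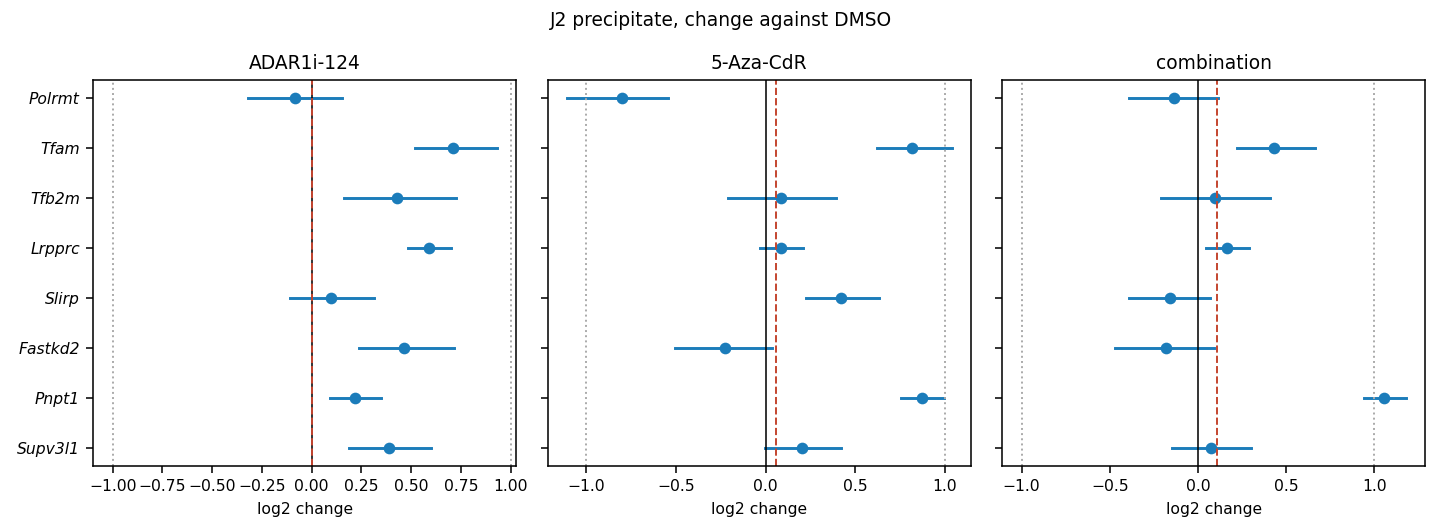
log2 change against DMSO in the J2 precipitate (horizontal axis) of the 8 genes (vertical axis) for 3 treatments. Points are log2 ratios of CPM + 0.5, bars 95% counting intervals, dotted lines the 2-fold limits and the dashed red line the median of all genes. Pnpt1 moves to the right from 0.22 with ADAR1i-124 to 1.05 with the combination.

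In the Z22 precipitate, 6 of the 8 genes were at least 2-fold higher than with DMSO in each of the 3 treatments, and Polrmt was the one below 0 in each. All 3 comparisons rest on the Z22 DMSO library described above, and the median of all genes was above 0 in each. With ADAR1i-124, 42.9% of 12799 genes were at least 2-fold higher and 5.13% lower, with 5-Aza-CdR 52.1% of 13716 and 4.1%, and with the combination 43.4% of 13276 and 5.03%. That median was 0.81, 1.06 and 0.82, so the changes below are also given relative to it. Pnpt1 was at 1.99 (1.78 to 2.27), 2.66 (2.45 to 2.95) and 2.67 (2.46 to 2.95) with the 3 treatments, and at 1.18, 1.60 and 1.85 relative to the median of all genes. Slirp was at 2.63, 2.47 and 2.20, and Tfb2m at 2.63, 2.50 and 2.25, from 37 and 18 counts with DMSO. Polrmt was at -0.26 (-0.48 to -0.04), -0.76 (-1.06 to -0.49) and -0.18 (-0.43 to 0.06), and at -1.07, -1.82 and -1.001 relative to that median. Lrpprc, at 0.84, 0.75 and 0.70, was at 0.03, -0.31 and -0.12 relative to it. After subtraction of the median, 4, 3 and 3 of the 8 were at least 2-fold higher, beside 17.6%, 18.4% and 18.1% of all genes. On that scale Polrmt was the 1 gene of the 8 at least 2-fold lower in each, beside 17.5%, 19.3% and 17.6%. Of 7 markers of other cell types, 3 passed the filter with 5-Aza-CdR and with the combination, all at least 2-fold higher (medians 1.38 and 1.77). With ADAR1i-124, 2 passed and both were below 0 (median -0.50). The filter averages the 2 libraries compared, so a marker scarce with DMSO passes only where the treated level is high. The part of these markers was not tested. Without the DMSO library, the 3 other Z22 libraries differed by a factor of at most 1.60 for any of the 8 genes, which was reached by Pnpt1.

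**Figure D4:**
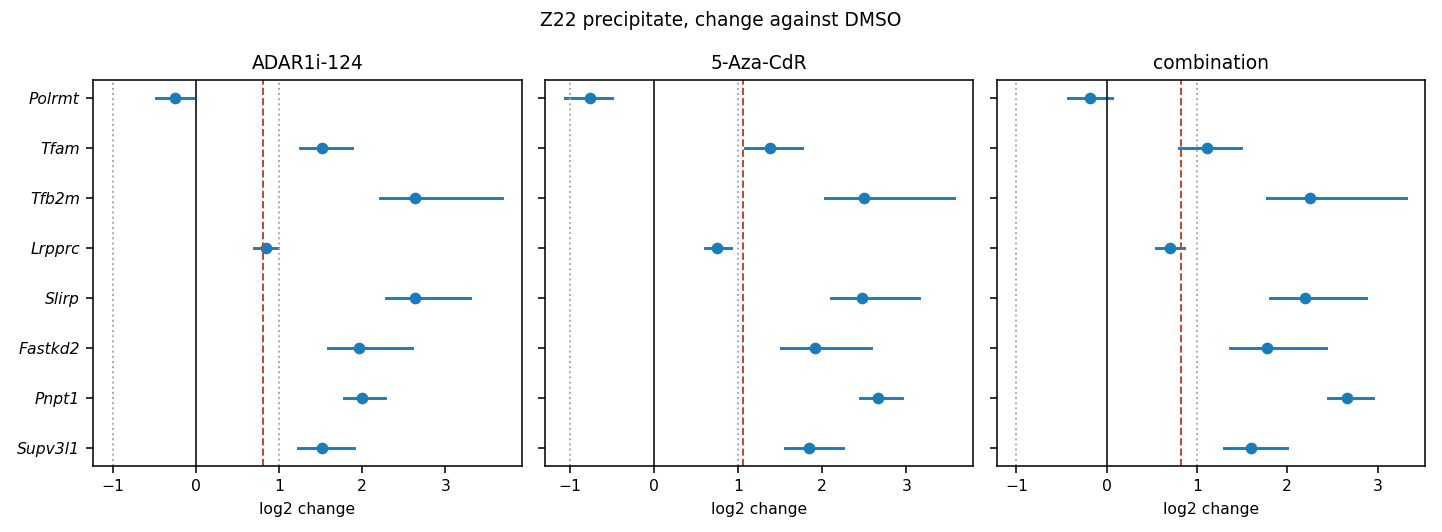
log2 change against DMSO in the Z22 precipitate (horizontal axis) of the 8 genes (vertical axis) for 3 treatments, drawn as for J2. The dashed red line, the median of all genes, lies at 0.81, 1.06 and 0.82, and Polrmt is the one gene to the left of 0 in each panel.

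The IgG library gives the level reached without either antibody. In 7 of the 8 precipitates more of the genes lay below IgG than above it, and in J2 with ADAR1i-124, 4 lay above (Polrmt, Lrpprc, Fastkd2 and Supv3l1) and 4 below. Of all genes, 43.4% to 50.6% lay below IgG in the 4 J2 precipitates, 71.0% in Z22 with DMSO and 41.5% to 53.5% in the other 3 Z22 precipitates. With J2 and DMSO, 7 of the 8 were below IgG, with a median of -0.39 against -0.0042 for all genes, and Polrmt was at 0.87 (0.63 to 1.18). Slirp and Tfam, at -1.03 and -1.01, were at least 2-fold below IgG, as were 8.97% of 13293 genes. With Z22 and DMSO, 6 of the 8 were at least 2-fold below IgG, where 45.4% of 12558 genes were, and Polrmt was at least 2-fold above it, where 11.3% were. None of the 8 was past 2-fold in J2 after ADAR1i-124 (5.63% of 12923 genes higher and 4.46% lower) or after 5-Aza-CdR (13% of 13479 higher and 5.57% lower), nor was any at least 2-fold higher in J2 after DMSO (13.5%) or the combination (17.9% of 13741). Slirp was the 1 gene at least 2-fold lower in J2 after the combination, where 7.98% were, and in Z22 after 5-Aza-CdR (5.13% of 13834) and the combination (10.7% of 13505). Polrmt was the 1 gene at least 2-fold higher in Z22 after ADAR1i-124, where 7.15% of 12922 were, and after the combination, where 17% were. None was at least 2-fold higher in Z22 after 5-Aza-CdR (21.4%) or at least 2-fold lower in Z22 after ADAR1i-124 (1.85%). The medians of the 8 in J2 were 0.00 after ADAR1i-124, -0.20 after 5-Aza-CdR and -0.32 after the combination, against -0.0062, 0.05 and 0.13 for all genes. In Z22 they were -2.17 after DMSO, -0.35 after ADAR1i-124, -0.20 after 5-Aza-CdR and -0.31 after the combination, against -0.83, -0.05, 0.18 and 0.01. Of the markers of other cell types, 2 or 3 passed the filter in each precipitate. Their median against IgG lay between -0.57 (ADAR1i-124) and 2.18 (combination) in J2, with 1.62 after DMSO, and between 0.01 (ADAR1i-124) and 1.62 (combination) in Z22, and their part was not tested. Slirp stayed below IgG in every precipitate, between -0.61 with J2 and 5-Aza-CdR and -3.60 with Z22 and DMSO. Pnpt1 was above IgG in the 4 precipitates from cells that received 5-Aza-CdR, at 0.44 and 0.62 with J2 and 0.29 in both with Z22, and below it in the other 4.

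Polrmt was above IgG in all 8 precipitates. In Z22 it was at 1.43 (1.20 to 1.74) after DMSO, 1.17 (0.95 to 1.46) after ADAR1i-124, 0.67 (0.38 to 1.004) after 5-Aza-CdR and 1.25 (1.01 to 1.56) after the combination. With J2 and 5-Aza-CdR the interval of Polrmt, at 0.07 (-0.23 to 0.38), included 0. Polrmt also had the highest GC content of the 8 genes. Its longest transcript is 60.5% G and C, more than in 97% of 11498 protein-coding genes, and the other 7 lie between 39.6% (Pnpt1) and 50.3% (Supv3l1). Across 10899 genes in the same 2 libraries, GC and the Z22 ratio to IgG with DMSO had a Spearman correlation of 0.50. In Z22 it was 0.38 after ADAR1i-124, 0.28 after 5-Aza-CdR and 0.35 after the combination. In J2 with DMSO it was 0.12 over 11055 genes, and -0.02, 0.11 and 0.13 after those treatments in that order. The median Z22 ratio with DMSO was 0.68 for genes of 60 to 65% GC and -1.68 for those of 40 to 45%. Polrmt lay between the quartiles of its GC class with Z22 after DMSO (-0.44 to 1.65), 5-Aza-CdR (-0.09 to 1.25) and the combination (0.17 to 1.59). It lay above the upper quartile after ADAR1i-124 (0.07 to 1.05). In J2 it lay above it after DMSO (-0.34 to 0.72) and, at 0.79, after ADAR1i-124 (-0.26 to 0.35), and between the quartiles after 5-Aza-CdR (-0.21 to 0.67) and, at 0.74, after the combination (-0.05 to 1.13). Slirp and Tfb2m, at -3.60 and -2.98 with Z22 and DMSO, lay below the lower quartile of theirs (-2.41 to -0.82), as did Supv3l1 at -1.67 (-1.35 to 0.29), and the other 4 lay between the quartiles. The part of GC in these values was not tested.

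**Figure D5:**
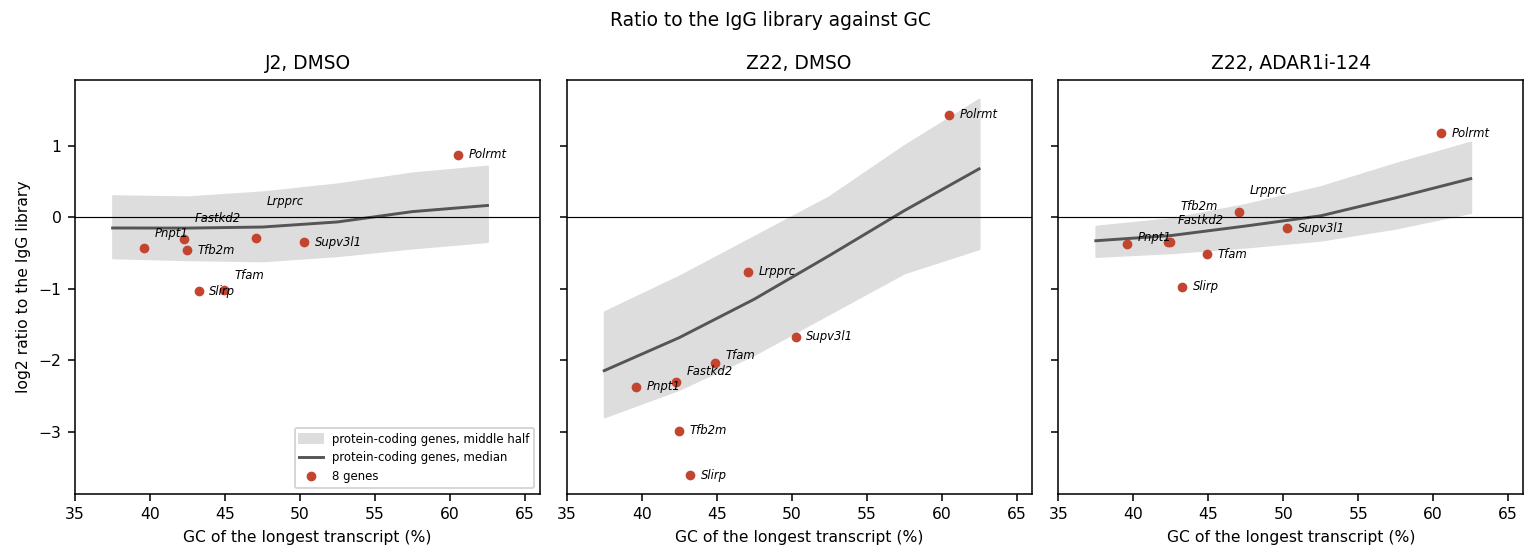
log2 ratio to the IgG library (vertical axis) against the GC content of the longest transcript (horizontal axis, percent) for the 8 genes (red points) in 3 precipitates. The grey line and band are the median and the quartiles of protein-coding genes in classes 5 percentage points wide. The median climbs with GC in the Z22 panels, from -2.15 at 35 to 40% to 0.68 at 60 to 65% with DMSO, and stays flatter with J2.

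The kinds of library could be tested, because treatments repeat across them. Each fit had the treatment as a block and used edgeR's quasi-likelihood test with Benjamini-Hochberg adjustment over all genes tested. No source says that the libraries come from separate cultures, so p-values measure only the spread between these libraries, which may be technical. Z22 was compared with J2 over 4 treatments. Of the 8 genes, none was called higher or lower at an adjusted p under 0.05, and of 13898 genes 0% were called in either direction. At an unadjusted p under 0.05 there were 3062 genes, 1 of them among the 8. That gene was Polrmt, higher with Z22 by 0.72 ± 0.22 (log2, SE), with an adjusted p of 0.144. It was higher with Z22 in 4 of 4 treatments. DESeq2 called 625 genes higher and 262 lower, with none of the 8 among them, and gave Polrmt an adjusted p of 0.0886. Over 9 alternatives that p lay between 0.0816 and 0.438. The largest differences below 0 were those of Slirp, at -0.63 ± 0.30, and Tfb2m, at -0.62 ± 0.30, with adjusted p of 0.261 and 0.260. Without the DMSO pair they were -0.28 and -0.29, and Polrmt was at 0.49.

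J2 was compared with total RNA over 3 treatments. None of the 8 was called, where 0.0212% of 14142 genes (3 genes) were called higher and 0% lower. The 8 differences lay between 0.13 (Tfb2m) and 0.49 (Slirp), but with library totals in place of TMM factors those of Tfam, Tfb2m, Lrpprc, Fastkd2 and Pnpt1 fell below 0. The smallest adjusted p among the 8 was 0.620, for Slirp at 0.49 ± 0.32. None of the 8 had an unadjusted p under 0.05, against 1602 of all genes, and DESeq2 called 313 higher and 103 lower without any of the 8. Without the DMSO pair, Tfam was at 0.99 ± 0.24 with an adjusted p of 0.0733, against 0.35 ± 0.46 with it, and over 8 alternatives that p lay between 0.0733 and 0.999.

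Z22 was compared with total RNA over the same 3 treatments. None of the 8 was called, where 0.057% of 14025 genes (8 genes) were called higher and 0% lower. Polrmt had the largest difference, 1.13 ± 0.55, with an adjusted p of 0.462, and the other 7 lay between -0.69 (Tfb2m) and 0.27 (Lrpprc). None of the 8 had an unadjusted p under 0.05, against 1623 of all genes, and DESeq2 called 258 higher and 60 lower without any of the 8. Without the DMSO pair Polrmt was at 0.44 and Tfb2m at -0.18. None of the genes of the other 4 mitochondrial lists was called by edgeR in any of the 3 comparisons, nor was any of 77 mitochondrial ribosomal protein genes or 12 interferon-stimulated genes.

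Across the 11 libraries of known treatment, after centring within each kind of library, the correlations between the 8 genes rested largely on the Z22 library of DMSO-treated cells. The 21 pairs without Polrmt had Pearson correlations of log2(CPM + 0.5) from 0.38 (Lrpprc with Pnpt1) to 0.94 (Tfb2m with Fastkd2), with a median of 0.80. The 7 pairs with Polrmt ran from -0.64 (with Tfam) to 0.07 (with Lrpprc), with a median of -0.40. That library is the lowest for 7 of the genes. Without it, over 10 libraries, the pairs without Polrmt ran from -0.51 (Tfb2m with Pnpt1) to 0.96 (Lrpprc with Fastkd2), with a median of 0.37 and 4 of 21 below 0, and those with Polrmt from -0.74 (with Slirp) to 0.46 (with Tfb2m), with a median of -0.28. With that library kept, the closest patterns among 8874 genes averaging 10 CPM or more were Mta1 (0.93) and Ppp1r13l (0.91) for Polrmt, and Ptges3-ps and Tomm40l (both 0.98) for Tfam. They were Cyb5a (0.996) and Ddx31 (0.993) for Tfb2m, Thoc1 and Rsl1d1 (both 0.98) for Lrpprc, and Ufc1 (0.996) for Slirp. For Fastkd2 they were Usp39 and Bbs7 (both 0.99), for Pnpt1 Cd164 and Dapp1 (both 0.99), and for Supv3l1 Nadk (0.99) and Ndufa12 (0.98).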

How the data were processed

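RNA of YUMM1.7 cells was sequenced in 13 libraries of total RNA and of RNA precipitated with J2, Z22 or IgG, 1 per condition. The authors mapped the reads with STAR in snakePipes to GRCm38 (mm10) and deposited raw counts per gene, without normalization. The counting tool and its strand setting are not given in the sources used here. Identifiers were matched to GENCODE M21 (54495 of 54532 genes, 37 unmatched). Groups follow the sample labels.

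CPM are counts over the library total, and 0.5 CPM was added before log2. Precision is set by the depth, 8167960 to 34571822 counts per library, and intervals (95%, exact binomial) and the floor of 3 counts cover counting error only, since reads carry no molecular identifiers. Comparisons between treatments and with IgG have 1 library a side and no test, and a gene was counted past 2-fold where it averaged 1 CPM or more. Kinds of library were compared with edgeR 4.0.16 in R 4.3.3 (quasi-likelihood test, TMM factors, treatment as a block, Benjamini-Hochberg adjustment, threshold 0.05), with DESeq2 1.42.0 as an alternative. On simulated counts with 200 genes changed 4-fold, 194 of them were called among 13953 genes for Z22 against J2, with 9 wrong calls. For J2 against total RNA 192 were called among 14140, with 4 wrong, and for Z22 against total RNA 195 among 14034, with 6. The simulated libraries shared a mean profile and a fixed spread, without treatment effects. These calls therefore do not give the power in the real libraries.

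The members and gene lists were chosen with earlier results of these data known. All 8 members are named. Of the other pathway genes, the 3 with the largest change in each total RNA comparison among genes averaging 10 CPM or more are named, and for each member the 2 genes with the highest Pearson correlation, of which 1 is not reported here. The partner ratios, the interferon regulatory factor motif, the classes of GC content, the correlations without the Z22 library of DMSO-treated cells and the subtraction of the median of all genes were added after the data were seen. Other scalings, pseudocounts, filters and fold lines, no block, and leaving out each treatment were tried. The total RNA library of the combination was left out of all comparisons. Promoter sequences are from RefSeq (GRCm38.p6), and all 8 matched. Python 3.11.15 with pandas 2.3.3, numpy 2.4.6, scipy 1.17.1 and matplotlib 3.10.9 was used.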

Additional observations from a re-analysis of the deposited data

Results flagged for a closer look

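Slirp reached 1033 CPM (1287 of 1245894 counts) in the total RNA library of the combination, which no comparison uses, while Tfam, Lrpprc, Fastkd2 and Supv3l1 had 0 counts there, which allows up to 2.41 CPM. The counts of that library follow the opposite strand, and Snw1, which shares 2914 exon bases with Slirp on that strand, had 564 counts in it.

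The remaining results are changes against DMSO that ran in opposite directions in total RNA and in a precipitate, also relative to the median of all genes, with both intervals clear of 0 and at least 1 of the changes 2-fold or more. The differences were not tested, because each rests on single libraries. Tfam was lower in total RNA with both compounds and higher in the precipitates. Its log2 change with ADAR1i-124 was greater by 1.94 in J2 and by 2.75 in Z22 than in total RNA, and its change with 5-Aza-CdR by 2.12 in J2 and 2.68 in Z22. With ADAR1i-124, the change in Z22 exceeded that in total RNA by 3.64 for Slirp, 2.58 for Pnpt1 and 1.90 for Supv3l1. With 5-Aza-CdR it exceeded it by 3.27 for Slirp, 2.98 for Fastkd2, 2.84 for Tfb2m and 2.75 for Supv3l1. Opposite changes that did not meet these limits were those of Polrmt with 5-Aza-CdR, at 0.26 in total RNA, -0.80 in J2 and -0.76 in Z22, and of Lrpprc, at -0.87 in total RNA and 0.75 in Z22, among others. All of the Z22 values share the Z22 library of DMSO-treated cells, against which the median of all genes was 0.81 with ADAR1i-124 and 1.06 with 5-Aza-CdR.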

How the results depend on the processing

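With 1 library per condition, depth limits the intervals but says nothing of the spread between cultures. With ADAR1i-124 in total RNA, the number of the 8 genes at least 2-fold higher went from 0 to 1 with TMM factors, DESeq2 size factors or totals without the 20 highest genes, and the number lower from 2 to 1 with these and with a pseudocount of 2 CPM, and to 0 at a 4-fold line. With 5-Aza-CdR the number lower went from 2 to 1 with a pseudocount of 2 CPM and to 0 at 4-fold. In J2 with the combination, the 1 gene higher became 0 with the 3 scalings and at 4-fold. In Z22 the number higher went from 6 to 2 with ADAR1i-124 at 4-fold, and from 6 to 3 with 5-Aza-CdR and with the combination under TMM, DESeq2, subtraction of the median of all genes or 4-fold. The number lower in Z22 went from 0 to 1 in all 3 treatments with TMM, DESeq2 and that subtraction, and with 5-Aza-CdR also with totals without the 20 highest genes. Against IgG at 4-fold, the numbers past the line became 0 for J2 with DMSO (2 lower, also 0 with totals without the 20 highest genes and with a pseudocount of 2 CPM), J2 with the combination (1 lower), and Z22 with DMSO (1 higher), ADAR1i-124 (1 higher), 5-Aza-CdR (1 lower) and the combination (1 higher, 1 lower).

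Calls over all genes depended on the tool. For Z22 against J2, DESeq2 called 625 higher and 262 lower, and edgeR without a filter 851 and 623. Leaving out a treatment gave 0 to 607 higher and 0 to 242 lower, the upper values without DMSO. For J2 against total RNA, DESeq2 called 313 and 103, and no filter gave 347 and 208. Without the block 0 were higher, and leaving out a treatment gave 2 to 288 higher and 0 to 215 lower, the upper values without DMSO, with 7 higher without ADAR1i-124. For Z22 against total RNA, DESeq2 called 258 and 60, no filter 198 and 78, library totals and totals without the 20 highest genes 4 higher each, and no block 0. Leaving out a treatment gave 4 to 65 higher and 0 to 13 lower, with 30 and 13 without ADAR1i-124 and 65 and 3 without 5-Aza-CdR. None of the 8 genes was called under any of these. The cause of these shifts was not tested.

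Signs of uncalled differences also turned. For Z22 against J2, Lrpprc went from 0.08 to -0.12 with library totals, -0.077 with totals without the 20 highest genes and between -0.015 (without DMSO) and 0.19 on leaving out a treatment, and Supv3l1 from -0.05 to between -0.18 and 0.090 (without DMSO). For J2 against total RNA, library totals gave -0.023 for Tfam, -0.24 for Tfb2m, -0.15 for Lrpprc, -0.0077 for Fastkd2 and -0.13 for Pnpt1, and leaving out a treatment gave -0.064 to 0.99 for Tfam, -0.050 to 0.27 for Tfb2m and -0.030 to 0.43 for Lrpprc, the lowest each time without 5-Aza-CdR. For Z22 against total RNA, Tfam went from -0.018 to 0.013 with DESeq2. Leaving out a treatment gave -0.36 to 0.54 for Tfam, -0.91 to 0.47 for Slirp, -0.77 to 0.24 for Fastkd2, -0.57 to 0.25 for Pnpt1 and -0.23 to 0.64 for Supv3l1, the highest each time without DMSO. Library totals gave -0.32 for Lrpprc and -0.37 for Supv3l1. The fits paired the libraries of each treatment through the treatment block, and with 1 library per condition there are no further replicates to pair.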
